A study of Saccharomyces cerevisiae with 2 samples.

Results

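The genes described here encode the machinery that brings secretory and membrane proteins to the endoplasmic reticulum (ER) and across its membrane in the budding yeast Saccharomyces cerevisiae. They are 10 genes of the 4685 listed in the deposited table, chosen by name: the Sec61 channel complex (SEC61, SBH1 and SSS1), the Sec62/Sec63 complex (SEC62, SEC63, SEC66 and SEC72), and 3 proteins of the signal recognition particle, SRP (SRP54, SRP68 and SRP72). All 10 were listed and all 10 passed the expression filter, a mean of at least 5 RPKM over both assays, which 4642 genes met.

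The series asked what sets ribosome density in yeast. It holds 1 ribosome footprint library, made from mRNA fragments protected by ribosomes, and 1 RNA-seq library, made from a cytoplasmically enriched extract after removal of ribosomal RNA and random fragmentation. Both came from strain BY4741, a MATa haploid laboratory strain that lacks LEU2, URA3 and MET17 and part of HIS3, growing at mid-log phase in rich glucose medium (YPD). With 1 library per assay no value has a replicate error, no p-value is given, and each difference below is a difference between these 2 libraries or between genes within them. Values are RPKM, read numbers scaled by the authors to gene length and library size, and the depth of the libraries is unknown. How much of the mRNA bound to ER membranes either extract held is not given in the sources used here.

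Proteins reach the ER by parallel routes. In the cotranslational route SRP, a particle of RNA and protein, binds the signal sequence as it leaves the ribosome and docks at its receptor on the ER membrane. The ribosome then feeds the chain into the Sec61 channel. In the post-translational route, which yeast uses for many secreted proteins, finished chains are threaded through the same channel with the help of the Sec62/Sec63 complex and pulled in from the lumen by the Hsp70 protein Kar2. SEC61, SSS1, SEC62 and SEC63 are essential for growth in yeast, and SBH1, SEC66 and SEC72 are not.

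None of the 10 genes has an annotated intron in its coding sequence, and none overlaps another annotated gene. Coordinates refer to assembly R64, which corresponds to sacCer3. The bases around each start codon are shown first, because translation of each mRNA begins there. Each line runs from 12 bases before the start codon to 9 bases after it, 5′ to 3′ on the coding strand. Capitals mark the start codon and the base 3 positions before it.
SSS1: ttgaaaaatAaaATGgctagagct
SBH1: ccatactccAtaATGtcaagccca
SEC61: tttactttgAaaATGtcctccaac
SEC62: acacaggagAacATGtcagccgta
SEC63: tattacagcAcaATGcctacaaat
SEC66: gagtttgccAatATGtccgaattt
SEC72: gcttattcaAccATGgttaccctt
SRP54: tctaactaaAggATGgttttggct
SRP68: ttgaaactaAagATGgttgcctat
SRP72: gaaagcaaaAaaATGgctaaagat

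An A stood 3 bases before the start codon in 10 of the 10 genes, and in 61.4% of the 4642 analysed genes. A at this place is the commonest base of yeast start sites. The letters ATG (coding strand, any frame) occurred within the 60 bases before the start codon in 3 of the 10 genes, SEC62, SRP54 and SRP72, and in 23.3% of all analysed genes. Whether those letters lie within the transcribed leader is not annotated in the files used here.

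All 10 genes had more footprints and more RNA than the median analysed gene. The median of the 10 was 174 RPKM of footprints and 185 RPKM of RNA, against 39.4 and 49.6 RPKM for the median of all analysed genes. The lowest in footprints, SRP72, still lay at the 71.2nd percentile of all analysed genes, and SSS1, the highest, at the 97.2nd. Among the 10, footprints spanned 13.5-fold and RNA 7.55-fold. Summed over their coding lengths, they took 0.218% of the listed footprints and 0.234% of the listed RNA.

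**Figure D1:**
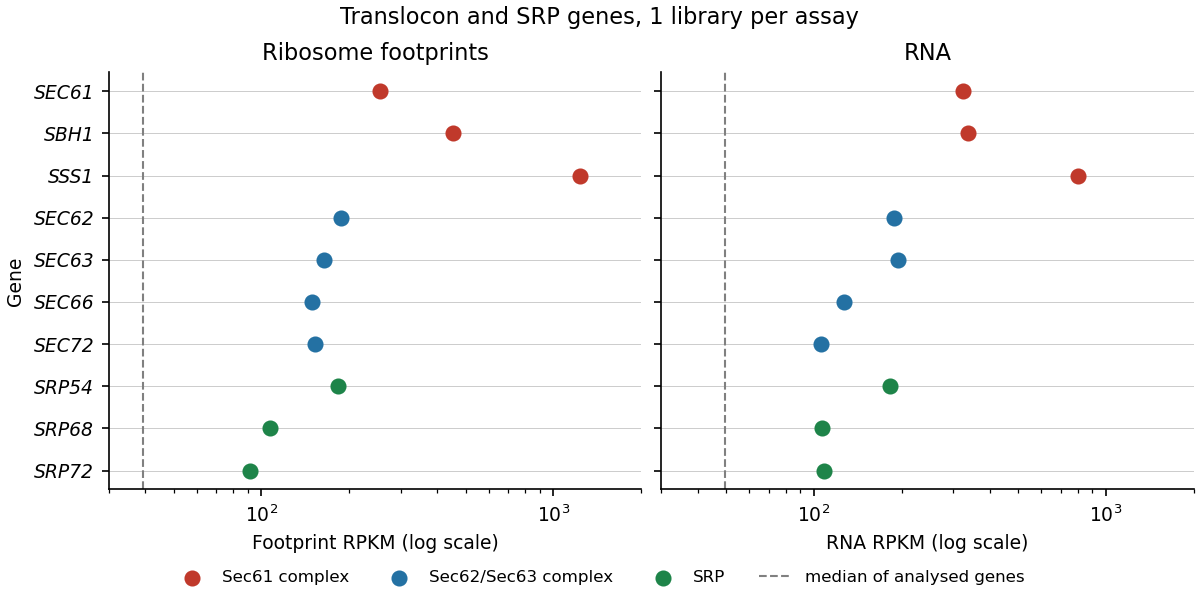
Footprint RPKM (left) and RNA RPKM (right) of the 10 genes on log axes, 1 point per gene and assay, coloured by complex, with the median of the analysed genes as a dashed line. SSS1 is highest in both panels, at 1236 RPKM of footprints and 802 RPKM of RNA, and all 10 genes lie right of the dashed lines.

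The Sec61 complex was the most unevenly expressed of the 3 groups. SEC61 encodes the channel itself, a protein that crosses the membrane many times (YLR378C, chromosome XII, 875736 to 877178, minus strand, coding length 1443 nt). It had 254 RPKM of footprints and 325 RPKM of RNA. SBH1 encodes the small beta subunit, which is anchored in the membrane by its tail (YER087C-B, chromosome V, 332582 to 332830, minus strand, 249 nt), and had 452 RPKM of footprints and 336 RPKM of RNA. SSS1 encodes the small gamma subunit, which clamps the channel together (YDR086C, chromosome IV, 616928 to 617170, minus strand, 243 nt). It had 1236 RPKM of footprints and 802 RPKM of RNA, rank 129 in footprints among the analysed genes.

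Both small subunits therefore had more footprints per unit length than the channel they join. SSS1 had 4.87 times the footprints of SEC61 and 2.47 times its RNA. SBH1 had 1.78 times the footprints of SEC61 and 1.03 times its RNA, so that SBH1 and SEC61 mRNA levels were nearly alike while their footprint levels were not. SSS1 exceeded SBH1 by 2.74-fold in footprints and 2.38-fold in RNA.

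The coding sequences of the 2 small subunits are short enough to show whole. They are the members with the most footprints per unit length, and among the shortest of all analysed genes (percentiles 1.21 and 1.27 of coding length). In SSS1 capitals mark the start and stop codons. In SBH1 they mark the longest run of bases shared exactly with SBH2, the gene for the beta subunit of the second translocon.
SSS1: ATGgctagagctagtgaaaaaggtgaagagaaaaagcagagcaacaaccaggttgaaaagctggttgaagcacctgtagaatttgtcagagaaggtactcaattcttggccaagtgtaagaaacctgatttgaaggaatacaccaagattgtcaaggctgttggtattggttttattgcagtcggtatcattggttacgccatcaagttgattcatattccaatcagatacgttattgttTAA
SBH1: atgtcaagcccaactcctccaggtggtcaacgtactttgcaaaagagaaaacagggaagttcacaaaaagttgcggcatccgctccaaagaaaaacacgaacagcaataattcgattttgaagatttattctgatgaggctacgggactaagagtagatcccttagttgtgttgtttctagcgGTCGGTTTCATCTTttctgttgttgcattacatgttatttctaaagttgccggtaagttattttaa

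That shared run is 14 bases long (positions 184 to 197 of the SBH1 coding sequence, counted from the A of its start codon). SBH1 and SBH2 had the same base at 68.6% of aligned positions. SEC61 and SSH1, its counterpart in the second translocon, had the same base at 60.8% of aligned positions, with a longest shared run of 13 bases. No stretch of 28 bases of any of the 10 coding sequences occurred a second time in the R64 genome on either strand. Reads of that length that match exactly could thus be placed on 1 gene each, although how the authors treated reads with mismatches is not given in the sources used here.

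Yeast has a second translocon, the Ssh1 complex, in which SSH1 replaces SEC61 and SBH2 replaces SBH1, while SSS1 belongs to both. SSH1 had 267 RPKM of footprints and 297 RPKM of RNA, close to the values of SEC61. SBH2 had 652 RPKM of footprints and 444 RPKM of RNA, more than SBH1 in both. Counted over both complexes, the gamma subunit had 1236 RPKM of footprints, the 2 beta subunits together 1104 RPKM and the 2 channel subunits together 521 RPKM. SSS1 footprints were thus 1.12 times the beta sum and 2.37 times the channel sum. In RNA the same 3 values were 802, 780 and 622 RPKM, so SSS1 was 1.03 times the beta sum and 1.29 times the channel sum. The subunits were closer to each other in RNA than in footprints. The gamma and beta genes have 243 to 267 nt and the channel genes 1443 and 1473 nt. Ratios of footprints to RNA fell with coding length across all analysed genes (described below). Relative to genes of their own length, log2 ratios were -0.14 for SSS1, -0.32 for SBH1 and -0.16 for SBH2. Those of the channel genes were -0.015 for SEC61 and 0.21 for SSH1.

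**Figure D2:**
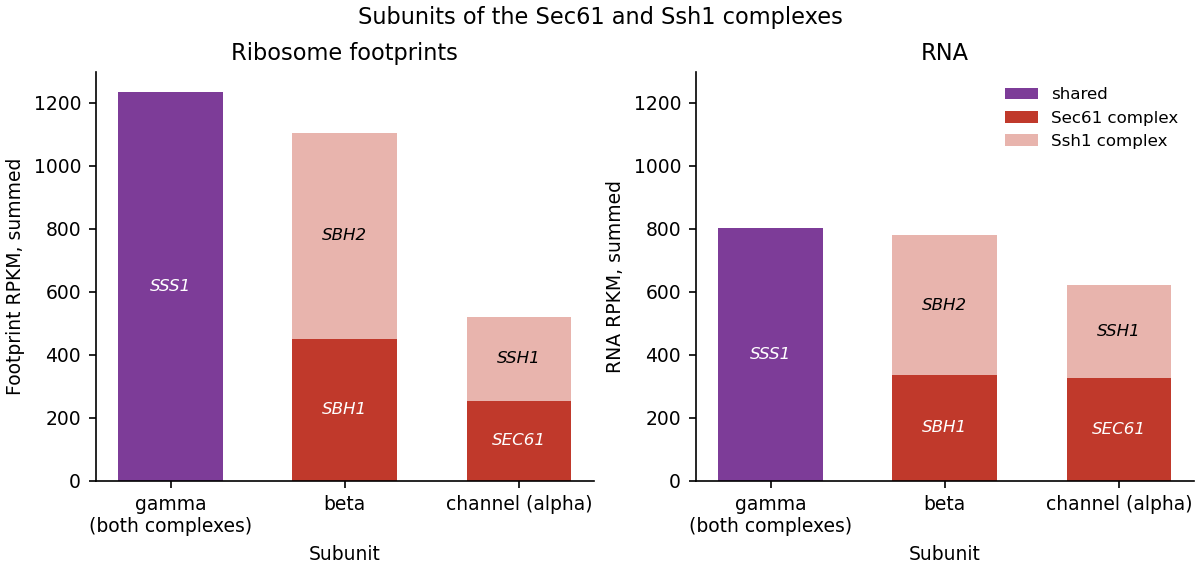
Summed footprint RPKM (left) and RNA RPKM (right) of the gamma, beta and channel subunits; bars start at 0, dark red is the Sec61 complex, light red the Ssh1 complex and purple the subunit of both. The gamma and beta bars are nearly level in RNA (802 and 780 RPKM), and the channel bar is the lowest in both panels (521 RPKM of footprints and 622 of RNA).

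The 4 genes of the Sec62/Sec63 complex had nearly even footprint levels. SEC62 encodes an integral membrane protein of the post-translational route (YPL094C, chromosome XVI, 369839 to 370663, minus strand, 825 nt). It had 187 RPKM of footprints and 188 RPKM of RNA. SEC63 encodes a membrane protein whose J domain recruits Kar2 on the lumenal side (YOR254C, chromosome XV, 805032 to 807023, minus strand, 1992 nt), and had 164 RPKM of footprints and 194 RPKM of RNA. SEC66, also known as SEC71, encodes a membrane subunit (YBR171W, chromosome II, 578364 to 578984, plus strand, 621 nt). Its values were 149 RPKM of footprints and 126 RPKM of RNA. SEC72, which encodes a subunit on the cytosolic face (YLR292C, chromosome XII, 719789 to 720370, minus strand, 582 nt), had 153 RPKM of footprints and 106 RPKM of RNA.

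From the highest to the lowest of these 4 genes, footprints differed by 1.26-fold and RNA by 1.83-fold. RNA levels fell into a higher pair, SEC63 and SEC62, and a lower pair, SEC66 and SEC72. The lower pair had the higher ratios of footprints to RNA, 1.44 for SEC72 and 1.18 for SEC66, against 0.995 for SEC62 and 0.845 for SEC63. The even footprint levels of the 4 genes thus came with uneven RNA levels. The lower pair also has the shorter coding sequences, and this ratio fell with coding length across all analysed genes (described below). Relative to the ratio typical of their length, the pair did not stand apart. SEC63 was at 1.29 times that ratio, SEC72 at 1.19, SEC66 at 0.999 and SEC62 at 0.962. The channel gene SEC61 had 1.35 times the footprints of SEC62 and 1.55 times those of SEC63.

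The SRP genes had the lowest group medians in RPKM of the 3 groups, at 107 of footprints and 108 of RNA, though SRP54 was above SEC63, SEC66 and SEC72 in footprints, and SEC72 had the lowest RNA level of the 10. SRP54 encodes the GTPase that binds signal sequences (YPR088C, chromosome XVI, 711403 to 713028, minus strand, 1626 nt), and had 183 RPKM of footprints and 182 RPKM of RNA. SRP68 (YPL243W, chromosome XVI, 88517 to 90316, plus strand, 1800 nt) had 107 RPKM of both footprints and RNA. SRP72 (YPL210C, chromosome XVI, 154290 to 156212, minus strand, 1923 nt) had 91.2 RPKM of footprints and 108 RPKM of RNA. The products of SRP68 and SRP72 bind each other within the particle, and SRP68 had 0.989 times the RNA and 1.18 times the footprints of SRP72. SRP54 stood above both, by 1.71-fold in footprints and 1.70-fold in RNA over SRP68. All 3 genes lie on chromosome XVI.

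The other SRP protein genes lay near these values. SRP14, whose product forms a homodimer in the yeast particle, had 200.3 RPKM of footprints and 135 RPKM of RNA. SRP21 had 144 RPKM of footprints and 105 RPKM of RNA. SEC65, whose product is the counterpart of mammalian SRP19, had 142 RPKM of footprints and 90.5 RPKM of RNA. Over the 6 SRP proteins footprints spanned 2.20-fold and RNA 2.01-fold, with SRP14 and SRP54 highest in footprints and SRP68 and SRP72 lowest. The SRP receptor was lower than any of the SRP proteins in footprints: YDR292C, the gene of its alpha subunit, had 58.6 RPKM of footprints and 79.5 RPKM of RNA, and YKL154W, the gene of its membrane-anchored beta subunit, had 78.5 RPKM of footprints and 86.0 RPKM of RNA.

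Ribosome density was taken as log2 of footprint RPKM over RNA RPKM, set to 0 at the median of the 4642 analysed genes, whose ratio was 0.821. Of the 10 genes, 9 lay above the median gene, where 50% of all analysed genes lie by construction, and none lay more than 2-fold from it. Among all analysed genes 6.79% lay past 2-fold on the upper side and 13.1% on the lower side. The median density of the 10 was 0.29, and the interquartile range of all analysed genes was -0.59 to 0.52. The count above the median gene and the median density depend on the centre: with total footprints over total RNA as the centre, all densities drop by 0.38, 4 of the 10 lie above it, and the median of the 10 is -0.087. Differences between members are the same under either centre. The count and the median also depend on RNA level. Across all analysed genes density rose with RNA level (Spearman rho of 0.53), and all 10 genes had more RNA than the median gene. Adjusted for RNA level, 4 of the 10 lay above 0, and the median of the 10 was -0.099.

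In order, the densities were 0.91 for SSS1, 0.81 for SEC72, 0.71 for SBH1, 0.52 for SEC66, 0.29 for SRP54, 0.29 for SRP68, 0.28 for SEC62, 0.04 for SEC63, 0.04 for SRP72 and -0.07 for SEC61. The 4 highest have the 4 shortest coding sequences. SEC61, at 0.951 times the median gene, was the one member below it. From SSS1 to SEC61 the densities differed by 1.97-fold. SRP54, SRP68 and SEC62 had footprint to RNA ratios between 0.995 and 1.01, and without replicates their order cannot be told.

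Within the Sec61 complex the density of SSS1 exceeded that of SEC61 by 0.98 and that of SBH1 exceeded it by 0.78 (log2). SSS1 exceeded SBH1 by 0.20. Most of the gap in footprints between SBH1 and SEC61 was therefore a gap in density, while SSS1 also had the higher RNA level. Their counterparts in the second translocon had a like order, with a density of 0.84 for SBH2 and 0.13 for SSH1.

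**Figure D3:**
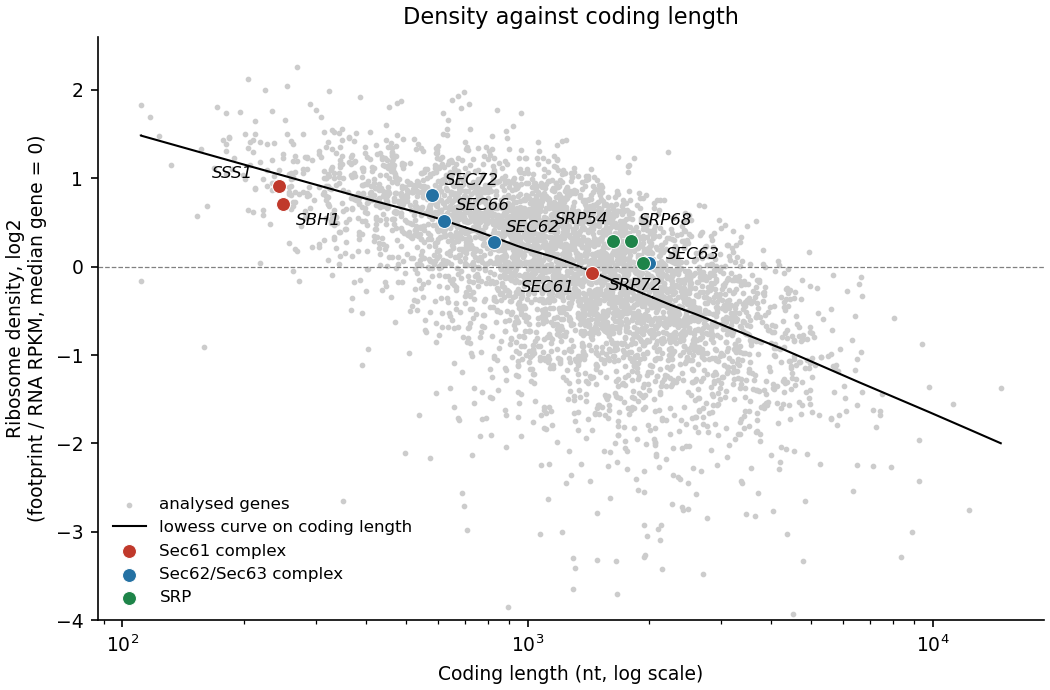
Ribosome density (log2, median gene at 0) against coding length (nt, log axis) for the analysed genes (grey) and the 10 genes (coloured by complex), with the typical density for each length as a line; 30 genes with a density under -4 are outside the frame. The 2 shortest members, SSS1 (0.91) and SBH1 (0.71), lie under the line, and the SRP genes lie above it.

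Coding length went with density in these libraries as a whole, with a Spearman rho of -0.62 across the 4642 analysed genes. Across the 10 members it was -0.79 (n = 10 genes, all from the same 2 libraries). Density was therefore also adjusted for coding length, as the distance from a smooth curve of density on length, centred again on the median gene. Of the 10 genes, 5 then lay above 0, where 50% of all analysed genes lie by construction, and none lay more than 2-fold from it. The share of all analysed genes more than 2-fold above was 2.02% and more than 2-fold below 9.22%.

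The order of the members turned over. Adjusted densities were 0.53 for SRP68, 0.45 for SRP54, 0.37 for SEC63, 0.34 for SRP72 and 0.25 for SEC72. These 5 were followed by SEC66 and SEC61, both within 0.02 of the typical gene of their length (-0.0015 and -0.015), SEC62 at -0.06, SSS1 at -0.14 and SBH1 at -0.32. The 4 longest members now stood highest, and the 2 shortest, both among the 3 highest as measured, stood lowest. SRP68 had 1.45 times the density typical of its length, and SBH1 0.800 times. Relative to genes of their own length, SSS1 fell short of SEC61 by 0.12 (log2 difference -0.12) and SBH1 by 0.31 (-0.31).

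**Figure D4:**
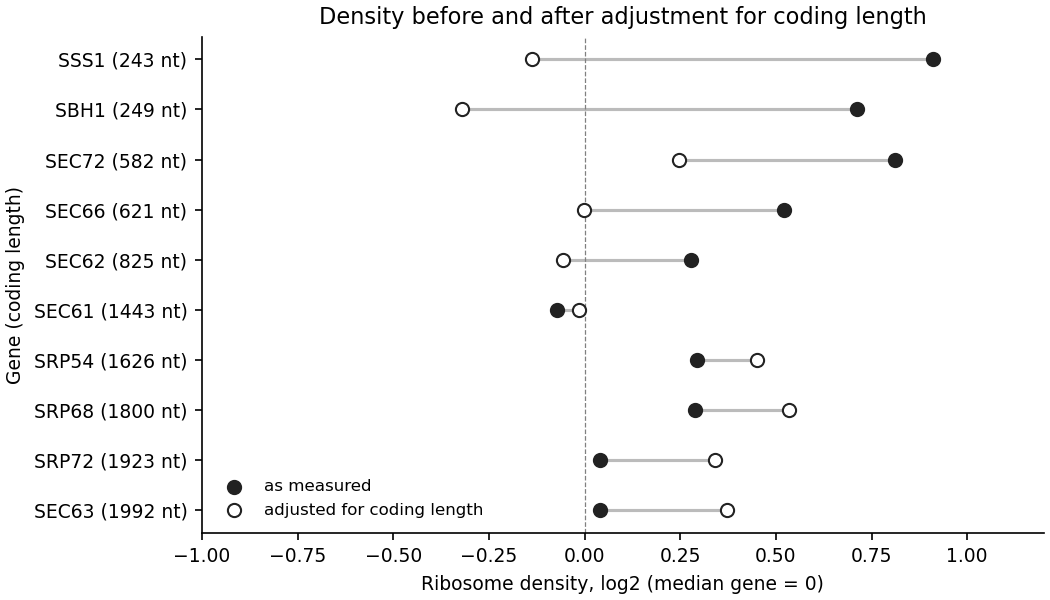
Ribosome density of each gene (log2, median gene at 0) as measured (filled) and adjusted for coding length (open), with genes ordered from the shortest at the top to the longest at the bottom. Adjustment moves SSS1 to -0.14 from a measured 0.91 and moves SRP68 to 0.53 from a measured 0.29.

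Adjusted densities of the 3 SRP genes were all positive, between 0.34 and 0.53. Those of the 3 Sec61 complex genes were all negative, between -0.32 and -0.01, with SEC61 close to 0. By construction 50% of all analysed genes lie above 0. The Sec62/Sec63 complex lay across both ranges, from -0.06 to 0.37. As measured, the SRP range (0.04 to 0.29) lay inside that of the Sec61 complex (-0.07 to 0.91). Related genes did not all keep the split. Adjusted, SBH2 was at -0.16 but SSH1 at 0.21. The other SRP protein genes were positive, from 0.10 for SRP21 to 0.60 for SEC65. The receptor genes were at 0.12 (YDR292C) and -0.26 (YKL154W). These signs depend on the adjustment. A straight line in place of the curve puts SEC61 above 0. A plane on length and RNA level kept the signs of both groups. It gave 0.14 to 0.35 for the 3 SRP genes and -0.80 to -0.46 for the 3 Sec61 complex genes. The line and the plane were chosen after seeing the data. Adjusted for RNA level in place of length, all 3 SRP genes were negative (-0.18 for SRP54, -0.016 for SRP68 and -0.27 for SRP72), SSS1 (0.17) and SBH1 (0.13) were positive, and SEC61 was at -0.65.

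SSS1 had the highest codon adaptation of the 10 genes. Codon adaptation, the likeness of a gene's codons to those of ribosomal protein genes on a scale up to 1, was 0.516 for SSS1 (96.5th percentile of the analysed genes) and 0.315 for SEC61 (86.9th). The other 8 members had values between 0.231 for SEC72 and 0.281 for SEC63, and the median of all analysed genes was 0.221. Codons rare in ribosomal protein genes (weight under 0.1) made up 11.4% of the codons of SSS1, against a median of 25.1% over the 10 genes and 29.3% over all analysed genes. SBH1, of nearly the same length and from the same complex, had 25.9% of such codons. Across the 10 members codon adaptation did not follow density (rho of -0.13, n = 10), whereas across all analysed genes the rho was 0.39.

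Further lists covered partners of the channel and of SRP, other routes into the ER membrane, and model substrates. They were chosen with earlier results of these data known, and all 45 of their genes passed the expression filter. Of these, 35 lay above the median gene (50% of all analysed genes), 3 more than 2-fold above (SPC1, MDY2 and OST5, 6.67% of the 45 against 6.79% of all analysed genes) and none more than 2-fold below (13.1% of all analysed genes). The median of the 45 was 0.34, beside 0.29 for the 10 translocon and SRP genes. Centred on total footprints over total RNA, 21 of the 45 lay above the centre and their median was -0.037. With adjustment for coding length, 27 of 45 lay above 0 and the median was 0.10.

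The signal peptidase, which cuts signal sequences from entering chains, had footprint values of 78.1 to 135 RPKM over its 4 genes. Each was lower than any Sec61 or Sec62/Sec63 complex gene. Their densities were 1.23 for SPC1, 0.87 for the catalytic subunit gene SEC11, 0.35 for SPC2 and 0.27 for SPC3. The short subunit gene SPC1 (285 nt) was the highest in density, as the short SSS1 was in the Sec61 complex. That did not hold in every list: OST4 (111 nt), of the oligosaccharyltransferase described below, had a density of -0.16.

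In the ER lumen KAR2, the Hsp70 gene that serves both import and folding, had 559 RPKM of footprints and 760.3 RPKM of RNA, with a density of -0.16. KAR2 footprints were thus well above those of its membrane partner SEC63 (164 RPKM). Its co-factors had less: LHS1 had 65.0 RPKM of footprints, SIL1 36.9, and the J-protein genes SCJ1 and JEM1 102 and 20.3 RPKM. Their densities ran from -0.23 for JEM1 to 0.47 for SCJ1.

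The oligosaccharyltransferase, which adds sugar chains to proteins as they pass the channel, spanned a wider range of footprints than the Sec62/Sec63 complex, 4.44-fold over 9 genes, with OST6, a subunit that alternates with OST3, lowest at 51.9 RPKM and OST5 highest at 231 RPKM. Its catalytic subunit gene STT3 had 124 RPKM of footprints and 254 RPKM of RNA. STT3 had the lowest density of that list, -0.74, and OST5 the highest, 1.06. After adjustment for length the median of the 9 genes was -0.01. The lowest was then OST4 (111 nt) at -1.64, while STT3 was at -0.35.

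**Figure D5:**
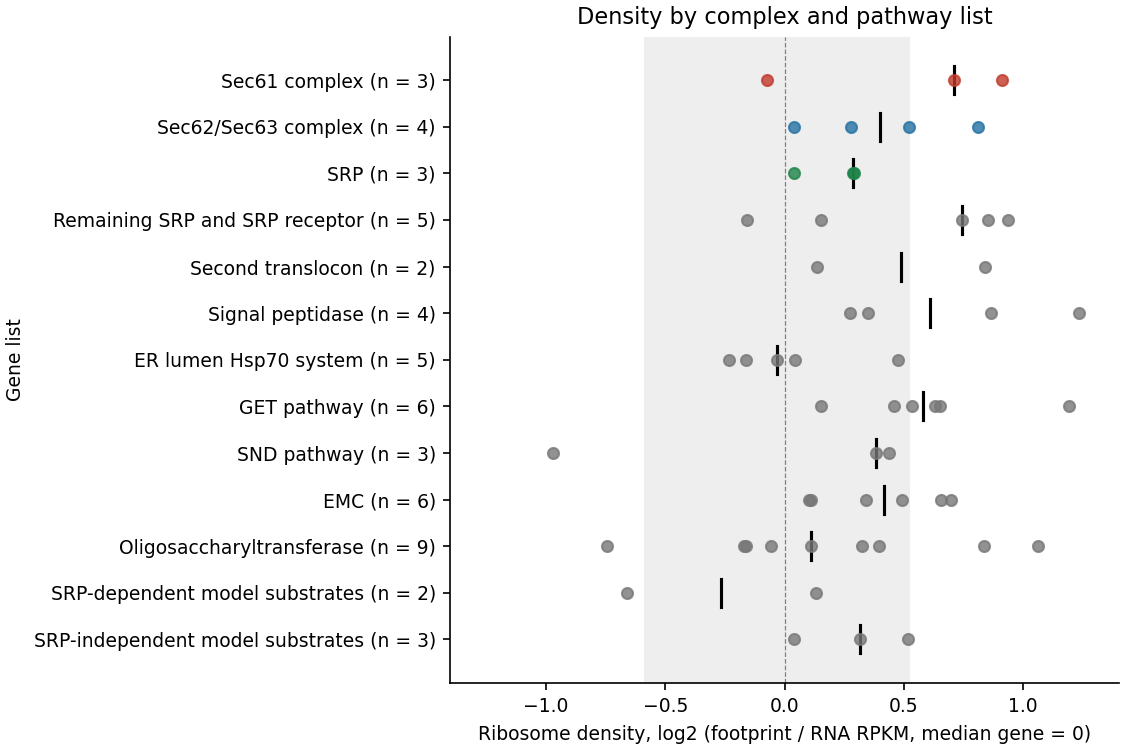
Ribosome density (log2, median gene at 0) of each gene, by complex and pathway list, with the list median as a black bar and the interquartile range of all analysed genes shaded. The 10 translocon and SRP genes (coloured) lie between -0.07 and 0.91.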

How the data were processed

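Ribosome footprints and RNA were measured in 1 library each. The deposited table gives RPKM values per gene for both assays and the authors' log2 ratio of footprint to RNA RPKM. Recomputing it from the deposited RPKM values gave the same log2 numbers to within 1.63e-09. Per the file headers, the authors kept genes with at least 10 RPM of RNA and more than 0 RPM of footprints. Per the submitters' processing notes the build was sacCer3. Which aligner and gene lengths were used, how reads were counted and whether strand was respected is not given in the sources used here. Depth cannot be recovered, so values carry no counting interval.

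All 4685 identifiers matched a locus tag of the R64 annotation from RefSeq, which supplied symbols, coordinates and coding sequences. Those models lack UTRs, and each length is a coding length. Density was computed with no pseudocount for genes with a mean of at least 5 RPKM and centred on their median. The curve on log2 coding length was a lowess fit (statsmodels 0.14.6, 0.3 of the genes per window). On simulated data it was tested for the overall trend and for a known shift in genes picked at random. The shortest genes, where SSS1 and SBH1 lie, were not tested by themselves. Codon weights came from 138 genes of cytosolic ribosomal proteins, after adding 0.5 to every codon count. Aligned identity was computed with Biopython 1.88. Correlations are Spearman's, across genes, which are not independent replicates. The members and gene lists were chosen with earlier results of these data known. Named genes are all 10 members, all genes of lists with 5 or fewer, and the highest and lowest in density of longer lists. OST4, OST6, EMC6, EMC5 and GET3 were named after their values were seen. Alternatives are given in the closing section.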

Additional observations from a re-analysis of the deposited data

How the results depend on the processing

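No paired analysis was possible because each assay has 1 library, and no replicate could be left out. The count of members more than 2-fold from the median gene was 0 under each of the 8 alternatives. The count above the median gene was 9 as measured, with no expression filter and with 1 RPKM added to both values, and 7 among genes with a mean of at least 20 RPKM. It was 4 when centred on total footprints over total RNA, 5 with adjustment for coding length and 4 with adjustment for RNA level. The median density of the members was 0.29 as measured. It was -0.087 when centred on the totals, 0.30 with no filter, 0.11 at a mean of at least 20 RPKM, 0.28 with 1 RPKM added, 0.12 adjusted for length and -0.099 adjusted for RNA level. A pair of adjustments was chosen after seeing the data. A straight line on length gave 7 members above 0 and a median of 0.14. A plane on length and RNA level gave 4 members above 0 and a median of -0.054. SSS1, SEC72, SBH1 and SEC66, in that order, stood highest in density as measured and with 1 RPKM added. The choice of centre or filter shifts all members alike, so it cannot change their order. SRP68 led the members under both adjustments for length alone and under the plane, and SEC72 under that for RNA level. The causes were not tested. With 1 RPKM added, the footprint range over the Sec61 complex was 4.85-fold and over the SRP members 1.995-fold.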

Other observations

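Genes of other routes into the ER membrane had footprint levels from 23.5 RPKM (SND1) to 1172 RPKM (PHO88), beside 91.2 to 1236 RPKM for the 10 translocon and SRP genes. The GET pathway inserts proteins anchored by their tail, among which is Sbh1 itself. Its 6 genes all lay above the median gene in density (50% of all analysed genes do), from MDY2 at 1.19 to SGT2 at 0.15 (median 0.58). This depends on the centre: with total footprints over total RNA, all densities drop by 0.38, which puts SGT2 below it. Adjusted for coding length, SGT2 was at -0.018. The cytosolic factors SGT2 and GET3 had 601 and 493 RPKM of footprints, more than each of the 10 genes but SSS1. The ER membrane protein complex, EMC, had footprint levels that spanned 1.65-fold over its 6 genes, from EMC5 at 109 RPKM to EMC6 at 181 RPKM, beside 1.26-fold over the 4 genes of the Sec62/Sec63 complex. Its densities ran from 0.10 for EMC1 to 0.70 for EMC2.

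The SND route, a further targeting path, was the most uneven of the lists. PHO88, also called SND3, had 1172 RPKM of footprints, near the level of SSS1 (1236 RPKM). Its RNA, at 1094 RPKM, was above that of SSS1 (802 RPKM). SND1 had 23.5 RPKM of footprints and 56.2 RPKM of RNA, with a density of -0.97, and ENV10, also called SND2, had 89.8 RPKM of footprints and 80.7 RPKM of RNA. Among model substrates, those that can enter the ER without SRP had 1208 RPKM of footprints for GAS1, a cell wall enzyme, 1032 for the disulfide isomerase gene PDI1 and 310 for PRC1, which encodes carboxypeptidase Y. The SRP-dependent substrates PHO8, the vacuolar alkaline phosphatase, and DAP2, a vacuolar dipeptidyl aminopeptidase, had 212 and 49.9 RPKM. Their densities were 0.32 for GAS1, 0.52 for PDI1, 0.04 for PRC1, 0.13 for PHO8 and -0.66 for DAP2.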
